A study of Mus musculus with 2 samples.

Results

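The genes described here are Trp53, which encodes the tumour suppressor p53, its inhibitors Mdm2 and Mdm4, and 7 genes known as transcriptional targets of p53: Cdkn1a, Ccng1, Zmat3, Phlda3, Trp53inp1, Psrc1 and Dcxr. They were taken by symbol, after RefSeq identifiers had been matched to mouse gene names, and all 10 were found among the 16881 transcripts of the table. RNA sequencing had been carried out on immortalised mouse embryonic fibroblasts (MEFs) of strain C57BL/6, 1 library with genotype p65-/- (p65-null) and 1 library with genotype p65+/+ (p65 wild-type). p65 is the NF-kB transcription factor subunit that Rela encodes, and the design asks how gene expression differs in its presence and absence. No agent was named in the labels for either library. The sources used here do not say how the MEF lines were immortalised or whether a line is 1 clone.

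Each genotype is represented by 1 library, so nothing here could be checked against replicates and no test was made. Genotype and any other difference between the MEF lines cannot be told apart. The p65-null library held 15441394 fragments and that of wild-type MEFs 20794476. Rela was 6.90-fold lower in p65-null MEFs (95% counting interval 5.96 to 8.03), at 13.1 normalised CPM (fragments scaled to the size of the library) against 90.5 in wild-type MEFs. The libraries also differed in sex-linked RNA: Xist, which coats the inactive X, had 2 fragments in p65-null MEFs and 956 in wild-type MEFs, and the Y-linked Kdm5d had 207 and 0. All 9 fibroblast markers looked up were measured, with sums of 24700 CPM in p65-null and 12000 CPM in wild-type MEFs, most of it from Col1a1, Col1a2, Vim and Fn1. The markers did not all differ in 1 direction: Thy1 was lower in p65-null MEFs (9.64 CPM against 82.9 CPM in wild-type MEFs) and Pdgfrb 1.33-fold lower, while S100a4 was 12.5-fold higher and the other 6 were 1.36-fold to 2.95-fold higher. The 5 epithelial markers, which included Epcam and Krt14, summed to 2.61 CPM in p65-null and 0.118 CPM in wild-type MEFs. Most of the p65-null sum came from Krt18, at 1.52 CPM. The 4 endothelial markers summed to 2.18 and 3.40 CPM in p65-null and wild-type MEFs, and the 3 blood cell markers found to 8.45 and 18.5 CPM. Of the blood cell markers, Ptprc had 0 fragments in p65-null MEFs and 2 in wild-type MEFs. Cd14 had 66.5 and 361, and Cd68 went the other way with 61.5 and 29.

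p53 is a transcription factor that is kept scarce by the ubiquitin ligase Mdm2 and held inactive by the related protein Mdm4. DNA damage, oncogene activity and other stresses release it, mainly by changing the stability and modification of the protein rather than the amount of its mRNA. Active p53 then induces genes of cell cycle arrest, repair, metabolism and cell death, together with Mdm2 itself, which closes a feedback loop. In mouse fibroblasts this pathway, with the p19Arf protein encoded by Cdkn2a as an inhibitor of Mdm2, is a known barrier to growth in culture.

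Of the 10 genes, 5 were higher by 2-fold or more in p65-null MEFs (Cdkn1a, Phlda3, Trp53inp1, Psrc1 and Dcxr), 0 were lower by that margin and 5 lay within 2-fold. Across all 12135 transcripts with a mean of at least 1 CPM, which are called measured here, 12.2% were higher and 13.7% lower by 2-fold or more, together 25.9%. All 5 higher genes are p53 targets, and for each of the 5 the whole counting interval lay past 2-fold. The median log2 ratio (p65-null over p65 wild-type) of the 10 genes was 1.41, beside -0.03 for all measured genes. Among the alternatives described below, it was 1.01 under ribosomal protein scaling, where that of all measured genes was -0.44. At a minimum of 5 CPM, which leaves out Trp53inp1, 4 members were higher by 2-fold or more and their median was 0.91. These members were chosen with results of these data known, so the count describes them and tests nothing. In such bulk libraries, fewer cells with an RNA and less of it per cell cannot be told apart.

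**Figure D1:**
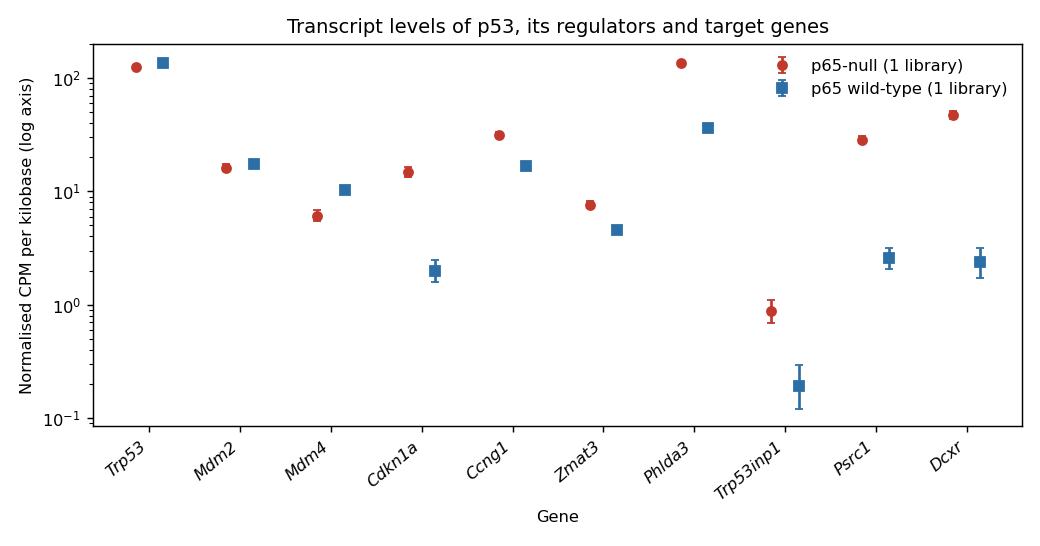
Level of each gene in normalised CPM per kilobase of transcript (log axis), in p65-null MEFs (circles) and wild-type MEFs (squares); bars are 95% Poisson intervals for counting error. Trp53 and Mdm2 each lie at nearly the same level in both libraries, while Dcxr was at 47.5 in p65-null MEFs and 2.38 in wild-type MEFs.

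The gene for p53 itself differed little. Trp53 (transcript NM_001127233, chromosome 11, 69580348 to 69591873, GRCm38) had 3518 fragments in p65-null MEFs and 5403.5 in wild-type MEFs, or 232 and 255 normalised CPM. Its log2 ratio was -0.13 (-0.20 to -0.07), a level 1.10-fold lower in p65-null MEFs. Per length it was abundant, at percentile 95.1 of measured genes in p65-null MEFs and 95.6 in wild-type MEFs. Once GC content and length of the transcripts were corrected for, as described below, its log2 ratio was -0.50. Under ribosomal protein scaling it was -0.54.

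Mdm2, the ligase that marks p53 for degradation and is also induced by p53, was at nearly the same level. It (NM_010786, chromosome 10, 117688875 to 117710758) had 762 fragments in p65-null MEFs and 1151 in wild-type MEFs, which is 50.3 and 54.3 normalised CPM. The log2 ratio of -0.11 had a counting interval that held 0 (-0.24 to 0.02). It was 0.00 under upper quartile scaling, 0.14 after the GC and length correction and -0.52 under ribosomal protein scaling. Mdm2 thus showed no direction that held across settings.

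Mdm4 encodes a relative of Mdm2 that binds the activation domain of p53. The gene (NM_008575, chromosome 1, 132986105 to 133030587) had 323 fragments in p65-null MEFs and 763.5 in wild-type MEFs, or 21.3 and 36.0 normalised CPM. It was 1.69-fold lower in p65-null MEFs (1.48 to 1.93), with a log2 ratio of -0.76. This value varied with the processing, being -0.11 after the GC and length correction and -1.16 under ribosomal protein scaling. The mouse annotation also names pseudogene copies Trp53-ps and Mdm4-ps, and the sources used here do not say how reads shared with such copies were treated.

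Cdkn1a encodes p21, the inhibitor of cyclin-dependent kinases through which p53 halts the cell cycle. It (NM_007669, chromosome 17, 29090979 to 29100722) had 429 fragments in p65-null MEFs and 80.5 in wild-type MEFs, or 28.3 and 3.80 normalised CPM. The level in p65-null MEFs was 7.46-fold higher (5.87 to 9.58), and the gene stood at percentile 63.2 of measured genes per length in p65-null MEFs and 18.3 in wild-type MEFs. Its log2 ratio of 2.90 ran between 2.49 and 3.01 over the 8 alternative processings.

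Phlda3 encodes a small protein with a pleckstrin homology domain that keeps the kinase Akt from the membrane. With 2946 fragments in p65-null MEFs and 1092 in wild-type MEFs (NM_013750, chromosome 1, 135766085 to 135769134), it was at 194 and 51.5 normalised CPM. It was 3.78-fold higher in p65-null MEFs (3.52 to 4.05), where it was the most abundant of the 10 per length. Its log2 ratio of 1.92 was 1.38 after the GC and length correction, in a transcript of 62.6% GC.

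Trp53inp1 encodes a stress-induced protein that acts with p53 and in autophagy. It was the scarcest of the 10, with 71.5 fragments in p65-null MEFs and 22 in wild-type MEFs (NM_021897, chromosome 4, 11156441 to 11174379), or 4.72 and 1.04 normalised CPM. The level was 4.55-fold higher in p65-null MEFs, with a wide interval of 2.79 to 7.70. Its log2 ratio was 2.19, and 3.36 after the GC and length correction, in a transcript of 38.8% GC.

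Psrc1, also called DDA3, encodes a microtubule-binding protein of the mitotic spindle. It (NM_019976, chromosome 3, 108383804 to 108388231) had 730 fragments in p65-null MEFs and 92 in wild-type MEFs, which is 48.2 and 4.34 normalised CPM. The level was 11.1-fold higher in p65-null MEFs (8.93 to 13.9).

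Dcxr encodes a reductase of dicarbonyl compounds and the sugar L-xylulose, and showed the largest ratio of the 10. It (NM_026428, chromosome 11, 120724546 to 120727284) had 641.5 fragments in p65-null MEFs and 45 in wild-type MEFs, or 42.3 and 2.12 normalised CPM. It was 19.9-fold higher in p65-null MEFs (14.7 to 27.6), at percentile 98.8 of the ratios of all measured genes. Psrc1 stood at percentile 98.2 and Cdkn1a at 97.6 of the same ratios.

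Ccng1 and Zmat3 were also higher in p65-null MEFs, by less than 2-fold. Ccng1 encodes cyclin G, which brings a protein phosphatase to Mdm2. It (NM_009831, chromosome 11, 40748552 to 40755309) had 1688 fragments in p65-null MEFs and 1254.5 in wild-type MEFs, or 111 and 59.2 normalised CPM. That is 1.88-fold higher in p65-null MEFs (1.75 to 2.03), and its log2 ratio of 0.91 was 1.03 under upper quartile scaling and 1.79 after the GC and length correction. Zmat3 encodes a zinc finger protein that binds RNA and acts on splicing and mRNA stability. It (NM_009517, chromosome 3, 32334792 to 32365665) had 904.5 fragments in p65-null MEFs and 749.5 in wild-type MEFs, or 59.7 and 35.4 normalised CPM, 1.69-fold higher in p65-null MEFs (1.53 to 1.86). Its log2 ratio of 0.76 was 1.06 after the correction. Zmat3 overlaps the long non-coding gene 4930429B21Rik by 177 bases, which had 68.5 fragments in p65-null MEFs and 48.5 in wild-type MEFs, and the sources used here do not say whether strand was used in counting.

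**Figure D2:**
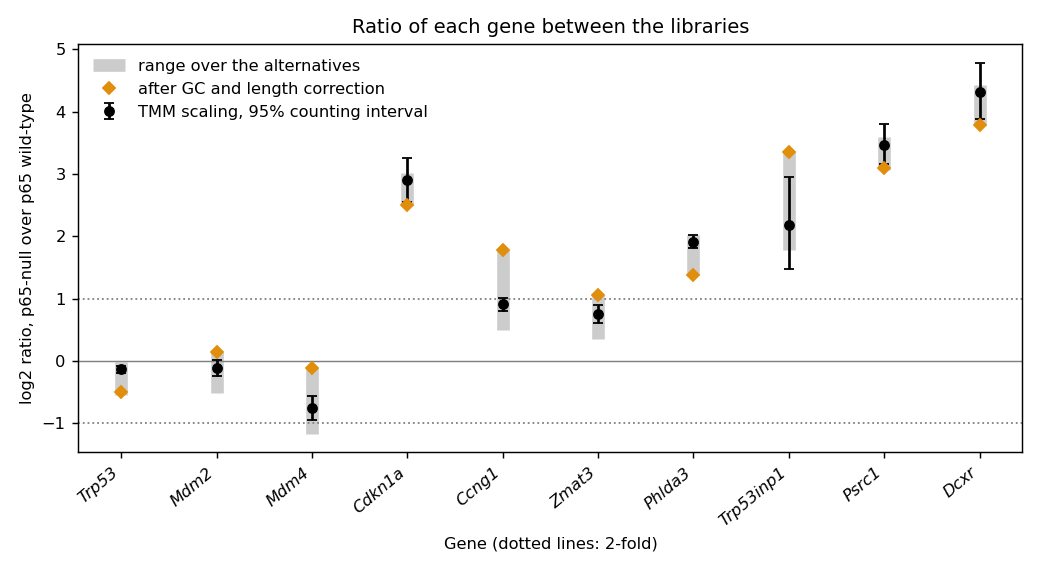
log2 ratio of each gene, p65-null over p65 wild-type: the circle is the value under TMM scaling with its 95% counting interval, the diamond the value after GC and length correction, and the grey bar the range over these and the other processings. Cdkn1a, Phlda3, Trp53inp1, Psrc1 and Dcxr lie above the 2-fold line throughout, and Ccng1 and Zmat3 cross it with the correction.

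The ratio of the libraries followed GC content across all measured genes (Spearman 0.44 over 11990 transcripts, which are not independent replicates), so a loess correction for GC content and then length was applied as an alternative. Its effect on the 10 genes went both ways. The GC-poor transcripts Ccng1 (40.8% GC), Trp53inp1, Mdm4 (42.8%) and Zmat3 (47.6%) had higher corrected ratios, and the GC-rich Phlda3 and Dcxr (60.2%) lower ones, with Dcxr at 3.79. Cdkn1a was at 2.50 and Psrc1 at 3.10. After the correction all 7 target genes were higher by 2-fold or more in p65-null MEFs and 0 of the 10 genes were 2-fold lower. The median of the 10 was then 1.58. The same correction left 11.2% of all measured genes higher and 9.22% lower by 2-fold or more.

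Scaling moved all ratios together. Against the trimmed mean scaling (TMM) used here, upper quartile factors raised every log2 ratio by 0.11, and scaling to ribosomal protein genes lowered every one by 0.41 (a shift of -0.41), which left 900 genes higher by 2-fold or more and 3020 lower against 1475 and 1667. The other scalings shifted the ratios by at most 0.06 in size (-0.06 for total counts). Under each of these scalings Cdkn1a, Phlda3, Trp53inp1, Psrc1 and Dcxr were higher by 2-fold or more in p65-null MEFs.

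Ratios between genes of the same library do not depend on the scaling, but the loess correction for GC content and length was not applied to them. With the GC and length correction the log2 ratios of Trp53 and Mdm2 were -0.50 and 0.14, further apart than the -0.13 and -0.11 without it. Mdm4 was at -0.11 with the correction and -0.76 without it, so it lay nearer to Mdm2 with it. Per kilobase, Mdm2 stood at 13.05% of Trp53 in p65-null MEFs (12.1% to 14.1%) and at 12.8% in wild-type MEFs (12.0% to 13.7%), with overlapping intervals. Mdm4 stood at 37.6% of Mdm2 in p65-null MEFs (32.9% to 42.9%) and at 58.9% in wild-type MEFs (53.7% to 64.6%). The targets stood nearer to Trp53, or above it, in p65-null MEFs. Cdkn1a was at 11.9% of Trp53 in p65-null MEFs and at 1.45% in wild-type MEFs, and Psrc1 at 23.0% and 1.89%. Phlda3 reached 109% of Trp53 in p65-null MEFs (104% to 114%), against 26.3% in wild-type MEFs (24.6% to 28.1%). Ccng1 stood at 195% of Mdm2 in p65-null MEFs (179% to 213%) and at 96.2% in wild-type MEFs (88.7% to 104%), where the 2 mRNAs were level within counting error.

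The order of the levels per kilobase differed accordingly. In p65-null MEFs Phlda3 led at 136 normalised CPM per kilobase and Trp53 followed at 124, then Dcxr at 47.5, Ccng1 at 31.7 and Psrc1 at 28.6. The middle was held by Mdm2 at 16.2 and Cdkn1a at 14.8, whose intervals overlapped, as did those of Ccng1 and Psrc1, and Zmat3, Mdm4 and Trp53inp1 ended the order at 7.66, 6.11 and 0.873. In wild-type MEFs Trp53 led at 137, before Phlda3 at 35.9, Mdm2 at 17.5 and Ccng1 at 16.9, again with overlapping intervals, Mdm4 at 10.3 and Zmat3 at 4.53. Psrc1, Dcxr and Cdkn1a were near each other there, at 2.57, 2.38 and 1.99 with overlapping intervals, and Trp53inp1 was last at 0.192. Dcxr, Psrc1 and Cdkn1a thus held ranks 3, 5 and 7 among the 10 in p65-null MEFs, against ranks 8, 7 and 9 in wild-type MEFs.

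The promoter windows of RefSeq (GRCm38.p6, 250 bases before to 50 after a start) were searched for the p53 half-site, the consensus of 10 bases that a pair of p53 molecules contacts. The consensus reads the same on both strands, so 1 scan covers both. Windows were at hand for 8 of the 10 genes (11 windows), all but Zmat3 and Trp53inp1. A half-site with no mismatch was found for Trp53, Mdm2, Ccng1 and Cdkn1a, in 4 of the 11 windows (36.4%), beside 8.36% of all 32851 windows. Windows were at hand for 53 of the 64 other p53 targets listed, which are described below. Of these 70 windows, 14.3% held 1. The sites are shown with half-site bases in capitals and each read 5′ to 3′ on the strand of its gene.
Cdkn1a, chr17:29090901-29090942, plus strand: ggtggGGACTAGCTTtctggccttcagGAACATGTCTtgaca
Cdkn1a, chr17:29090923-29090952, plus strand: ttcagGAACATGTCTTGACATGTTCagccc
Ccng1, chr11:40755457-40755486, minus strand: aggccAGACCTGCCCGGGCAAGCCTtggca
Mdm2, chr10:117710925-117710954, minus strand: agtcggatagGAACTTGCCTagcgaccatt
Trp53, chr11:69580274-69580303, plus strand: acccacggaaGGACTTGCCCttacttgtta
1 Cdkn1a window held 2 half-sites with no mismatch and 12 bases between them, at -73 to -42 from the start. This arrangement (up to 13 bases between) was present in 24 of all windows (0.0731%). The other Cdkn1a window had no match. Allowing 1 mismatch per half-site outside the central C and G, the Ccng1 site (-195 to -176) and the second Cdkn1a site (-51 to -32) each formed a pair of adjoining half-sites, and 2.71% of all windows held a pair under this rule with up to 13 bases between. Of the windows of the other p53 targets, 2.86% held a pair under this rule and 0 held a pair with no mismatch. A match is a description of letters, and sequence outside these windows was not searched. Among the genes with a match, Cdkn1a was 7.46-fold higher, Ccng1 1.88-fold higher and Mdm2 and Trp53 near their wild-type level, while Phlda3, Psrc1 and Dcxr, which were all more than 2-fold higher in p65-null MEFs, had no match in these windows.

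The 10 genes lie on 6 chromosomes, with Trp53, Ccng1 and Dcxr on chromosome 11. Their 20 nearest measured neighbours, taken at any distance, included 6 higher and 3 lower by 2-fold or more. Of all measured genes 12.2% were higher and 13.7% lower. The median log2 ratio of the neighbours was -0.13. Dcxr had both neighbours higher in p65-null MEFs. Rac3, a small GTPase gene 577 bases away, had a log2 ratio of 2.22 (1.59 to 2.89), and Cbr2, a carbonyl reductase gene 2201 bases away, of 1.83 (1.62 to 2.03). Beside Psrc1, the sorting receptor gene Sort1 was at 2.30 (1.95 to 2.67) and the seryl-tRNA synthetase gene Sars at 0.61. Beside Cdkn1a, Srsf3 and Ppil1 were at -0.53 and -0.21. The neighbours of Phlda3 went apart, with Csrp1 at 0.55 and the troponin gene Tnnt2 at -5.08 (-6.00 to -4.30). Trp53 and Mdm2, which were near their wild-type levels, each had 1 neighbour near its wild-type level and 1 higher in p65-null MEFs. Wrap53, which lies 98 bases from Trp53, was at -0.05 (-0.24 to 0.13), or -0.53 after the correction. Sat2, on the other side of Trp53, was at 1.94 (1.35 to 2.56). The carboxypeptidase gene Cpm, 1523 bases from Mdm2, had 35.5 fragments in p65-null MEFs and 3.5 in wild-type MEFs, a log2 ratio of 3.83 (2.26 to 5.95), and Slc35e3 on the other side was at -0.26. The remaining neighbours past 2-fold were Pttg1 for Ccng1 at 1.82, Skil for Zmat3 at -2.21 and Ccne2 for Trp53inp1 at -1.47. Ccne2 was at -0.07 after the correction. Pttg1 lay 2664935 bases from Ccng1 and Skil 1211869 bases from Zmat3, so neither is close by.

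**Figure D3:**
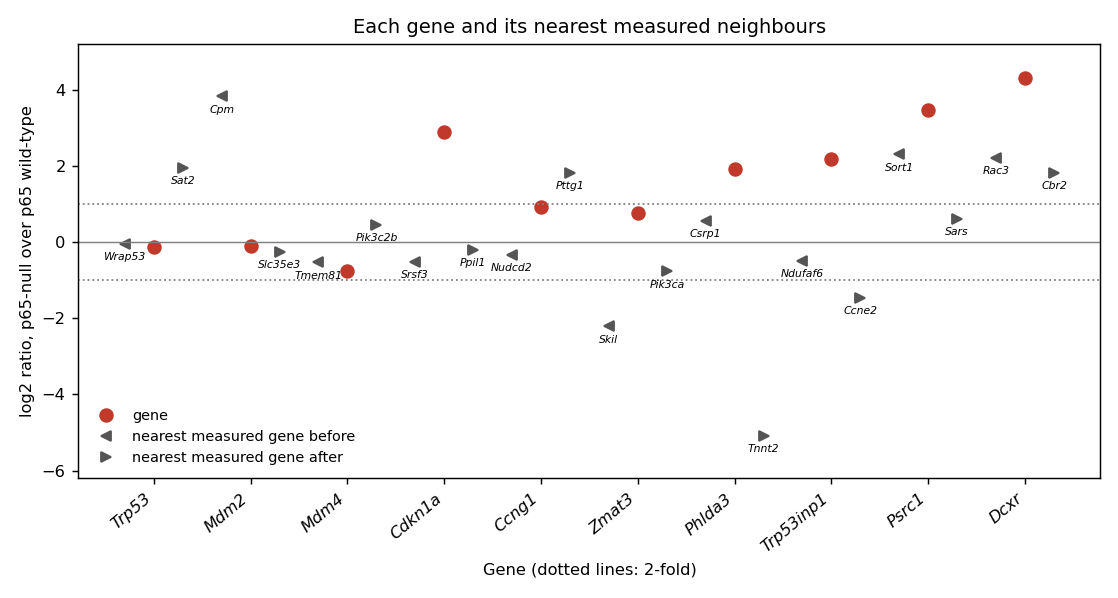
log2 ratio, p65-null over p65 wild-type, of each gene (circles) and of the nearest measured gene before and after it along the chromosome (triangles). Dcxr lies between 2 neighbours above the 2-fold line, Cdkn1a between 2 below 0. All values shown are without the GC and length correction, after which Srsf3, before Cdkn1a, was at 0.11.

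Of 28 other genes listed as acting on p53 or related to it, 27 were measured, of which 1 (3.7%) was higher and 5 (18.5%) lower by 2-fold or more in p65-null MEFs, beside 12.2% higher and 13.7% lower of all measured genes. Under ribosomal protein scaling 1 was higher and 9 were lower, and after the GC and length correction 2 were higher and 3 lower. Their median log2 ratio was -0.40, beside -0.03 for all measured genes. The largest difference in this list was in Cdkn2a, which encodes p16 and the Mdm2 inhibitor p19Arf: 3 fragments in p65-null MEFs and 1693.5 in wild-type MEFs, a log2 ratio of -8.66 (-10.94 to -7.11). Per kilobase, Cdkn2a RNA was at 1.36% of Mdm2 in p65-null MEFs (0.281% to 3.999%) and at 509% in wild-type MEFs (472% to 550%). Its measured neighbours Mtap, with 1 and 3407 fragments in p65-null and wild-type MEFs, and Cdkn2b, with 0 and 613.5, were also low in p65-null MEFs. The deacetylase gene Sirt1 was 3.18-fold lower in p65-null MEFs (2.52 to 4.05). The damage-sensing kinase gene Atm was 2.61-fold lower (2.34 to 2.91), although at -0.57 on the log2 scale after the GC and length correction. The other 2 lower members, named after their values were seen, were the kinase genes Atr and Hipk2 at log2 ratios of -1.15 and -1.02, with Atr at -0.12 after the correction. The kinase gene Chek2 had a log2 ratio of -0.49 and the phosphatase gene Ppm1d, an inhibitor of the pathway, of 0.16, or -0.24 under ribosomal protein scaling. The single higher regulator was the p53 relative Trp63, with 32 fragments in p65-null MEFs and 5 in wild-type MEFs, a log2 ratio of 3.16 (1.79 to 4.88). Its levels were 2.11 CPM in p65-null and 0.236 CPM in wild-type MEFs, so it passed the minimum of 1 CPM only through the p65-null library. At a minimum of 5 CPM, 0 regulators were higher by 2-fold or more.

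**Figure D4:**
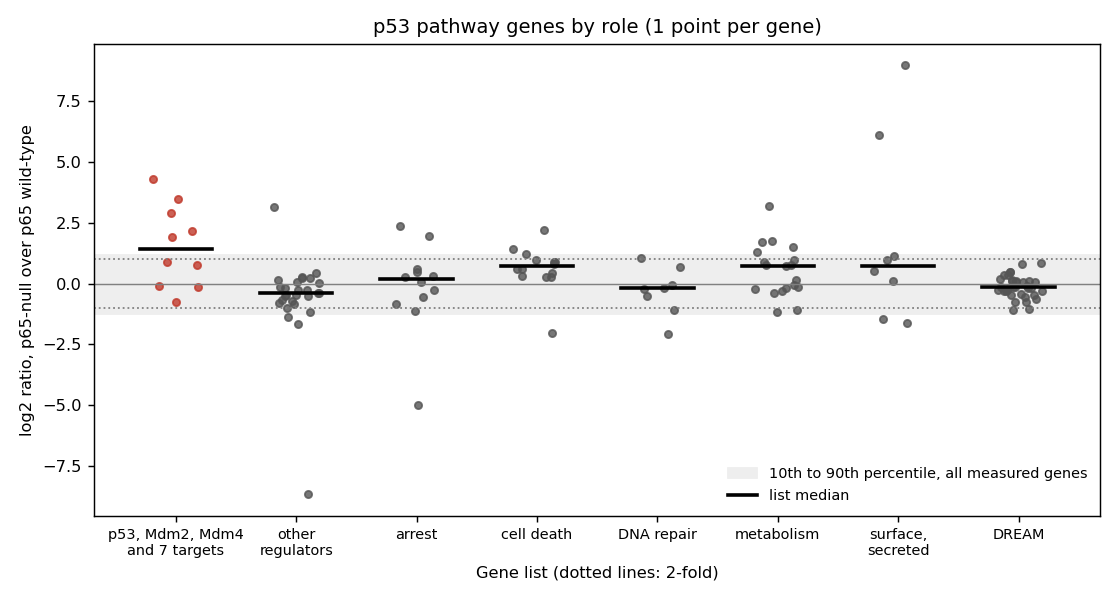
log2 ratio, p65-null over p65 wild-type, of every measured gene in 8 lists of the p53 pathway (1 point per gene, black bar the list's median); the grey band spans the 10th to 90th percentile of all measured genes, -1.23 to 1.16. Cell death and metabolic targets have medians of 0.72 and 0.74, and the cell cycle genes controlled through the DREAM complex lie within or near the 2-fold lines.

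The p53 targets beyond the 7 lay on both sides. Of 61 measured, 14 (23%) were higher and 9 (14.8%) lower by 2-fold or more in p65-null MEFs, beside 12.2% higher and 13.7% lower of all measured genes, so the share lower was near that of all genes. The median log2 ratio was 0.43. After the GC and length correction 11 were higher and 7 lower, with a median of 0.35. The split was 20 higher and 6 lower under upper quartile scaling and 10 higher and 10 lower under ribosomal protein scaling. The median was 0.026 under ribosomal protein scaling, where that of all genes lay lower by the shift given above.

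Arrest genes were split, with 2 of 12 measured (16.7%) higher and 2 (16.7%) lower by 2-fold or more. These shares were near the 12.2% higher and 13.7% lower of all measured genes. The median was 0.19, or -0.16 after the correction. Btg2, an antiproliferative gene, was 5.22-fold higher in p65-null MEFs (4.24 to 6.47) and Sesn2, a sestrin that restrains the growth kinase mTORC1, 3.95-fold (3.41 to 4.59). Its relative Sesn1 had a log2 ratio of 0.48. The stress gene Gadd45a was 2.15-fold lower (1.54 to 3.06), and Sfn, with 1 fragment in p65-null MEFs and 45 in wild-type MEFs, had a log2 ratio of -5.01 (-10.34 to -2.46).

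Among 14 cell death targets, 13 had log2 ratios above 0, beside 5919 of all 12135 measured genes. That number depends on the scaling, since ribosomal protein scaling shifts every log2 ratio by -0.41. Of the 14, 3 (21.4%) were higher and 1 (7.14%) lower by 2-fold or more in p65-null MEFs. The shares of all measured genes were 12.2% and 13.7%. The number higher by 2-fold or more was 6 under upper quartile scaling and 2 under ribosomal protein scaling or after the GC and length correction. The receptor gene Eda2r was 4.59-fold higher (3.28 to 6.52), Pidd1, which encodes a death domain adaptor, 2.66-fold (2.06 to 3.46) and Siva1 2.31-fold (2.10 to 2.55). With the GC and length correction Pidd1 was at 1.00, just short of 2-fold, and Siva1 at 0.67. The BCL2 family genes Bax and Bbc3 had log2 ratios of 0.90 and 0.82, or 0.38 and 0.23 after the correction, and the death receptor gene Fas of 0.62, or 1.11 after it. Pmaip1, which encodes Noxa, went the other way, with 9 fragments in p65-null MEFs and 52 in wild-type MEFs and a log2 ratio of -2.05 (-3.25 to -1.01).

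Of 8 repair targets, 1 (12.5%) was higher and 2 (25%) lower by 2-fold or more in p65-null MEFs. Of all measured genes 12.2% were higher and 13.7% lower. The higher repair target was the excision nuclease gene Ercc5 at 2.10-fold (1.77 to 2.50). The ribonucleotide reductase gene Rrm2b was 4.14-fold lower (2.77 to 6.39) and the translesion polymerase gene Polh 2.14-fold lower (1.96 to 2.33), but their log2 ratios were -0.98 and -0.96 after the correction. The 19 metabolic targets had 5 members (26.3%) higher and 2 (10.5%) lower by 2-fold or more, beside the same 12.2% and 13.7%. Their median was 0.74. After the GC and length correction 4 were higher and 1 lower, with a median of 0.38. The epoxide hydrolase gene Ephx1 was 9.08-fold higher in p65-null MEFs (8.12 to 10.2), the adenylate kinase gene Ak1 3.35-fold (3.16 to 3.55) and the lysosomal fucosidase gene Fuca1 3.25-fold (2.96 to 3.57). Lpin1 and Gamt, named after their values were seen, had log2 ratios of 1.51 and 1.29, with Gamt at 0.76 after the correction. The autophagy gene Dram1 and the phosphatase gene Tigar, a brake on glycolysis, were 2.22-fold (1.86 to 2.66) and 2.13-fold (1.75 to 2.61) lower, with Dram1 at -0.93 after the correction.

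Of 8 secreted or membrane targets, 3 (37.5%) were higher and 2 (25%) lower by 2-fold or more in p65-null MEFs. Of all measured genes 12.2% were higher and 13.7% lower. After the GC and length correction, and also under ribosomal protein scaling, 2 of these targets were higher and 2 lower. The peptide transporter gene Tap1, also an interferon-induced gene, had 360.5 fragments in p65-null MEFs and 1 in wild-type MEFs, a log2 ratio of 8.98 (6.49 to 14.29). Igfbp3, which encodes a binding protein of insulin-like growth factors, had 100 and 2, a log2 ratio of 6.13 (4.24 to 9.19). The phosphatase gene Ptp4a3 was 2.22-fold higher (1.82 to 2.71), or at 0.66 on the log2 scale after the correction. The secreted stress cytokine gene Gdf15, with 10.5 fragments in p65-null MEFs and 40.5 in wild-type MEFs, was 2.76-fold lower (1.37 to 6.06).

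Cell cycle genes that p21 and the DREAM repressor complex hold down lay mostly within 2-fold of their wild-type levels in p65-null MEFs. Of 35 measured, 0 were higher and 2 (5.71%) lower by 2-fold or more, beside 12.2% higher and 13.7% lower of all measured genes. The median log2 ratio was -0.15, or 0.01 after the GC and length correction, which left 0 lower. Under ribosomal protein scaling 5 were lower and the median was -0.56, where the ratios of all genes are shifted by -0.41. The lower members were the checkpoint kinase gene Bub1 and the centromere motor gene Cenpe, at 2.14-fold (1.93 to 2.38) and 2.05-fold (1.89 to 2.23), and both lay within 2-fold after the correction, at -0.26 and -0.25.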

How the data were processed

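Total RNA was sequenced from 1 p65-null and 1 p65 wild-type MEF culture, per the labels. Build mm10 and the tools HOMER, edgeR, STAR 2.4 and bcl2fastq 2.16 are listed in the submitters' processing notes with no role. The sources used here do not give the counting rule or any filtering. The authors' deposited table, though named as raw counts, holds a scaled signal, with the p65-null and p65 wild-type columns both summing to about the same total (18117930 and 18117934). All values under 1000 units were whole multiples of 1 step per column (100% whole within 0.0055 units), 0.587 for p65-null and 0.436 for p65 wild-type. Reads were recovered by dividing by the step, and 2 steps were taken as 1 fragment, since even multiples prevailed among values of 1 to 20 steps (75.7% in p65-null, 72.8% in wild-type); fragment numbers need not be whole. The planned unit was counts, and no count test was run because with 1 library per genotype nothing measures the spread.

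Symbols and coordinates came from RefSeq (GRCm38.p6, 16743 matched) or GENCODE M21 (83 matched), 55 transcripts staying unmatched. GC content and length are those of the matched GENCODE transcript. Levels are CPM scaled by TMM in edgeR 4.0.16 (R 4.3.3). Intervals are 95% Clopper-Pearson for ratios and exact Poisson for levels; they cover counting error only. A count of 0 was set to 3 fragments. The alternatives were scaling by upper quartile, ribosomal protein genes, total counts or DESeq2 1.42.0 size factors, thinning to equal depth, omission of the 10 most abundant transcripts, a prior count of 2, a loess fit (span 0.3) that removed GC content and length, other expression minima (none, 5 CPM) and other call rules (1.5-fold, whole interval). The ratio step was tested on simulated counts.

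The members and lists were chosen with earlier results of these data known. The text names all members, Rela, up to 3 genes higher and 3 lower per list by the interval end nearest 0, and Cdkn2a, Atm, Chek2, Ppm1d, Bax, Bbc3, Fas, Sesn1, Sesn2 and Btg2 whatever their values. Kdm5d and Xist, marker genes and neighbours were named besides. A gene that this rule names is not reported here.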

Additional observations from a re-analysis of the deposited data

How the results depend on the processing

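Each of the 10 ratios was recomputed under 8 alternatives. Of these 80 values, 4 crossed the 2-fold line (Ccng1 under upper quartile scaling and after the GC and length correction, Zmat3 after the correction, Mdm4 under ribosomal protein scaling) and 2, both of Mdm2, changed sign. No ratio past 2-fold changed direction. Of 272 values of the other named genes, 19 crossed the 2-fold line: Gadd45a, Polh, Tigar, Bub1, Cenpe and Bax under upper quartile scaling, Siva1, Ercc5 and Ptp4a3 under ribosomal protein scaling, and 10 after the GC and length correction, whose values stand in the report. Ribosomal protein scaling gave 1 member at least 2-fold lower (Mdm4), a median of 0.026 for the other p53 targets, and 900 higher and 3020 lower among all measured genes. The GC and length correction left 1105 lower among all genes. Without an expression minimum, 3293 of all genes were higher and 2743 lower. At a minimum of 5 CPM, 4 other p53 targets were lower and 924 of all genes higher. When the whole interval had to pass 2-fold, 4 other p53 targets were lower, and 965 of all genes were higher and 1104 lower. At 1.5-fold, 1 member (Mdm4) was lower, 28 other p53 targets were higher, and 2698 of all genes were higher and 3032 lower. The arrest list had a median of -0.22 under ribosomal protein scaling and paired half-sites were found in the promoter windows of 1 member with no mismatch and of 2 with 1 mismatch allowed. Among the 10 genes depth limits Trp53inp1 most, with 71.5 and 22 fragments in the p65-null and p65 wild-type libraries. Among the other named genes Sfn, Tap1, Igfbp3, Cdkn2a, Trp63, Pmaip1 and Gdf15 had 1 to 10.5 fragments in 1 of the libraries and wider intervals than Trp53inp1. No paired analysis was possible because each genotype has 1 library, and for the same reason no library could be left out.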
